A study of Mus musculus with 8 samples.

Results

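The transcripts examined were those of 8 nuclear genes whose proteins work in mitochondria, in metaphase II (mature) mouse oocytes. They were chosen by gene name from 3 roles, namely inner-membrane shape (Opa1 and Dnajc11), the respiratory chain (Ndufa10, Uqcrq and Cox7a2l) and the mitochondrial ribosome (Mrpl13, Dap3 and Mrps21). The choice was made among listed genes with earlier results of these data known, so that all 8 had values was fixed in advance. They fill 10 of the 469 deposited rows, which carry 417 gene names. The series holds 4 libraries labelled KO (L/L cre) and 4 labelled Ctrl (L/L, genotype WT), all from females of about 6 months. Both groups therefore carry L/L and differ by cre, a recombinase that cuts DNA between marked sites. The labels name neither the L/L gene nor the promoter that drives cre, so the loss of the target was not checked here. The design text asks how oocyte transcripts differ under raised levels of reactive oxygen species inside mitochondria. Oocytes were merged for each library and their RNA was amplified as full-length cDNA by Smart-seq2, and the labels do not say whether the libraries came from separate females. The p-values below then measure the spread between these libraries, which may be technical.

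Mitochondria make ATP by passing electrons along the complexes of the inner membrane, whose folds, the cristae, hold the complexes. A few subunits are encoded by mitochondrial DNA and made on mitochondrial ribosomes, while all other subunits and all ribosomal proteins come from nuclear genes and are imported. A mature oocyte holds a very large number of small, round mitochondria, which it passes to the embryo, and it is largely silent in transcription, so its messenger RNAs are mostly stored ones.

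In KO oocytes 6 of the 8 genes were lower and 2 were higher. The membrane genes Opa1 and Dnajc11, the respiratory genes Ndufa10 and Cox7a2l and the ribosomal genes Mrpl13 and Dap3 fell, and Uqcrq and Mrps21 rose, so the respiratory and ribosomal genes each split in direction. All 8 passed at an adjusted p under 0.05 in limma on log2(TPM + 1), where TPM is a transcript's abundance per unit of its length, scaled to a fixed total in each library. This count is no result about the 8 genes, since 93.8% of the 402 genes tested passed, 57.2% as lower and 36.6% as higher, in a table where no row had group means closer than 2.04-fold. The 2 groups of 4 libraries did not overlap for 6 of the 8 genes, against 56.5% of all genes tested. The median log2 fold change of the 8 genes was -1.14, beside -1.05 for all genes tested.

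The split between higher and lower genes depended on the scaling. In the deposited TPM 147 genes passed as higher and 230 as lower. After median-of-ratios scaling, with factors from the 266 genes listed above 0 in every library, 145 passed as higher and 52 as lower, and after quantile normalization 146 and 94. The 8 genes kept their directions under both scalings. After median-of-ratios scaling, where 49% of all genes passed, Uqcrq and Mrps21 passed as higher and Opa1 as lower. The falls of the other 5 genes no longer passed. The factors (0.532 to 0.916 in KO, 0.934 to 1.79 in Ctrl libraries) came from rows that all differed between the groups. Of all genes tested 61.7% were lower, so this scaling can take a shared fall off. A call lost under it does not show that a gene was unchanged. The median over all genes moved to -0.35 under that scaling, and the log2 fold changes of Dnajc11 (-0.41) and Cox7a2l (-0.36) lay next to it.

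**Figure D1:**
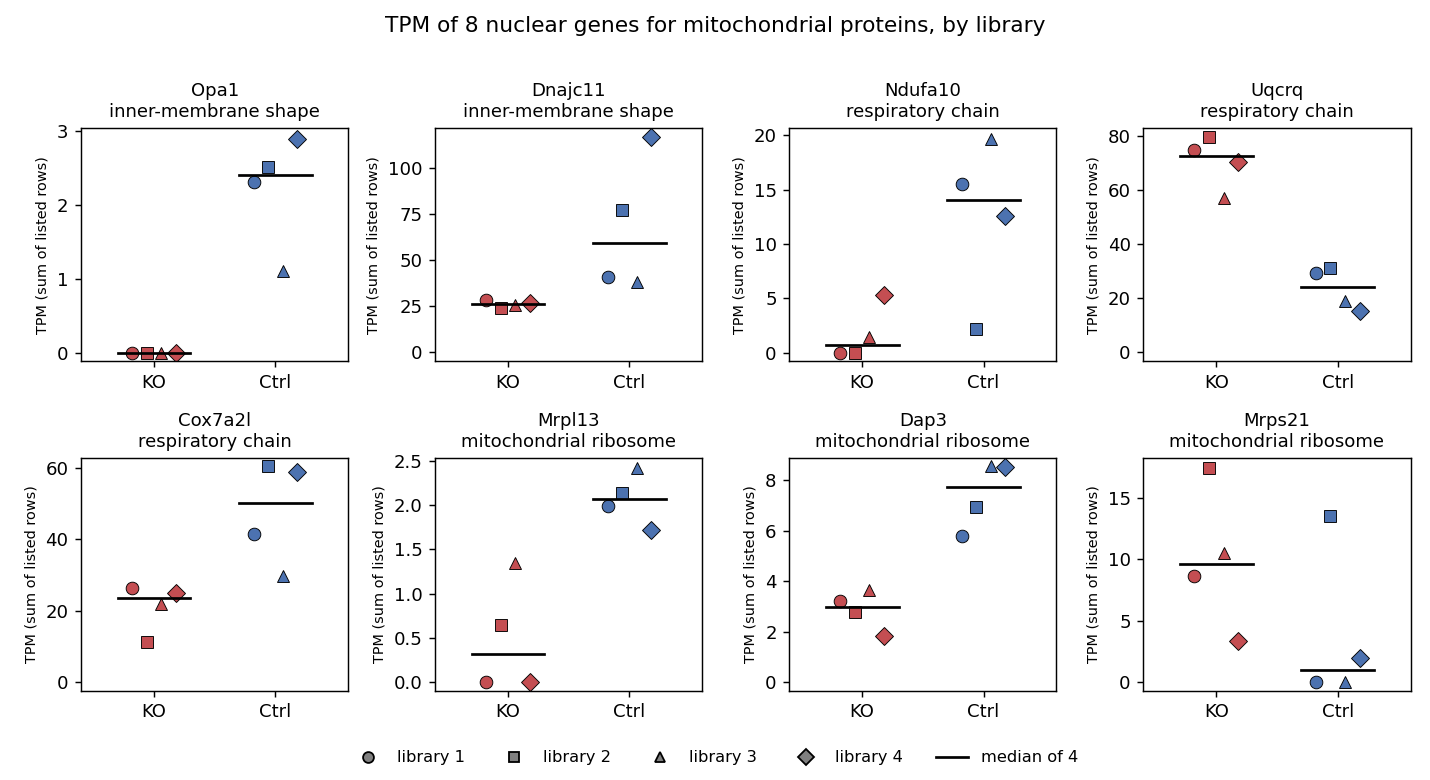
TPM of each of the 8 genes (y axis, sum of the listed rows of the gene, own scale per panel) in the 4 KO libraries (left, red) and the 4 Ctrl libraries (right, blue), with 1 symbol shape per library number and a bar at the median. The groups overlap for Ndufa10 and Mrps21 and are apart for the other 6 genes.

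The listed rows summed to between 12869 and 19916 TPM in KO libraries and between 32000 and 42538 TPM in Ctrl libraries, the mitochondrially encoded messenger RNAs included. The 8 nuclear genes together held 122 to 142 TPM in KO libraries and 119 to 219 TPM in Ctrl libraries. KO library 2 had the lowest listed sum, and Ctrl libraries 2 and 4 had the largest sums without the mitochondrially encoded genes. Each gene stands for its listed rows only, which may be single transcripts. A lower TPM in every oocyte and a loss from some of the merged oocytes cannot be told apart, and TPM do not keep sequencing depth, which is unknown. Of 16 oocyte markers, Nlrp9b alone had a row, at 67.2 to 100.1 TPM in KO and 155 to 221 TPM in Ctrl libraries. No marker of granulosa, stromal, endothelial or blood cells had a row, so other cell types were not assessed here.

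RefSeq promoter sequences (GRCm38.p6) were at hand for Opa1, Ndufa10, Cox7a2l and Mrps21. They are shown because nuclear genes for mitochondrial proteins often carry sites of NRF1, a factor known to drive such genes, and because these members went both ways. Each run overlaps no annotated exon of a protein-coding gene and is written 5′ to 3′ on the strand of its gene, with capitals at matches to the NRF1 motif CGCANGCGC or the Sp1 motif GGGCGG on either strand.
Opa1 (chr16:29579084-29579333, plus strand): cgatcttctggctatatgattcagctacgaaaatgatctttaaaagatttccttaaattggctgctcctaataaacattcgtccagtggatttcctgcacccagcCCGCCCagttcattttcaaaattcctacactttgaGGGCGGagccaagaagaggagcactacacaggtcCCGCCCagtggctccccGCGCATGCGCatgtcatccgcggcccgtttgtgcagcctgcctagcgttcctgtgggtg
Ndufa10 (chr1:92473861-92474008, minus strand): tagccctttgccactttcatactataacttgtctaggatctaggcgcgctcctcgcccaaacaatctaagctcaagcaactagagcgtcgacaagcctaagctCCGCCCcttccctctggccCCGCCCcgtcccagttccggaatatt
Cox7a2l (chr17:83514334-83514583, minus strand): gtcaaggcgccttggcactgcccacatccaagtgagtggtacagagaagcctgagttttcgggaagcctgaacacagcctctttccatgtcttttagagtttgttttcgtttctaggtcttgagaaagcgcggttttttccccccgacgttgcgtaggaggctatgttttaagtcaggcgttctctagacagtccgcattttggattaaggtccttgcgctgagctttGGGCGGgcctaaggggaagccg
Mrps21 (chr3:95871520-95871764, minus strand): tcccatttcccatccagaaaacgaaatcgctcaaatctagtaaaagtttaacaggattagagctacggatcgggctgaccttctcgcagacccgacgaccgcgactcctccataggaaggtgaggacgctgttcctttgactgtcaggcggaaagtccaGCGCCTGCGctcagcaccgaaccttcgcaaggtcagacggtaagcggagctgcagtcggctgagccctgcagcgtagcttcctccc

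The NRF1 letters were found in the window of Opa1, where matches on the 2 strands overlap from position -59 counted from the RefSeq start, and in that of Mrps21, from position -91 on the opposite strand. Of these 2 genes Opa1 was lower and Mrps21 higher in KO libraries, with overlap between the groups for Mrps21. The motifs were chosen after the sequences were seen, and a link of these letters to direction was not tested. Of all 32851 RefSeq promoter windows of 300 bases (250 before and 50 after the start), 6.31% held the NRF1 motif. Sp1 letters were found in the windows of Opa1 (3 matches), Ndufa10 (2) and Cox7a2l (2), and 35.7% of all windows held at least 1. The CRE motif TGACGTCA, the palindromic site of cAMP response factors, was found in the Ndufa10 window, outside the printed run, and in 1.79% of all windows. The ETS motif CCGGAAGT and the YY1 motif CGCCATNTT, held by 3.89% and 2.38% of all windows, matched none of the 4 windows. The GC content of the 4 windows was 53.3% to 59.0% (median of all windows 52.7%), and they held 18 to 28 CpG dinucleotides (median of all windows 7). No NRF1 match overlapped an Sp1 match. The noncoding gene C920021L13Rik starts on the other strand inside the Mrps21 window. The Cox7a2l run lies before the start of its coding transcripts but inside the annotated gene, in an intron of a longer noncoding transcript of Cox7a2l that starts at 83517330. A match to letters is a description of sequence and not a bound site.

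Opa1 encodes the dynamin-related GTPase that fuses inner mitochondrial membranes and keeps the cristae junctions tight (chromosome 16, 29579334 to 29654884, GRCm38). Its single row was listed at 0 TPM in all 4 KO libraries, and at 2.30, 2.51, 1.10 and 2.89 TPM in Ctrl libraries 1 to 4. The groups did not overlap, the Ctrl levels were low, and no fold is given against values of 0 (limma adjusted p = 0.00283). Opa1 reached the mean of 1 TPM needed for testing only through its Ctrl libraries. Its p-value and lack of overlap are therefore descriptions and no support for a fall. The annotation has 8 transcripts of Opa1, 4 of them coding and 888 to 6230 nucleotides long, and the row does not say which of them it measures. A value of 0 can be a failed estimate of 1 transcript and does not show that Opa1 messenger RNA was absent.

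Dnajc11 encodes a J-domain protein of the outer membrane that is found with the MICOS complex, which shapes the cristae (chromosome 4, 151933691 to 151982137). Its 2 rows summed to 28.3, 23.9, 25.8 and 26.8 TPM in KO libraries 1 to 4, and to 41.1, 77.1, 38.2 and 117 TPM in Ctrl libraries 1 to 4. The KO libraries were close to each other, while Ctrl libraries 2 and 4 stood high. The mean was 26.2 ± 1.88 TPM in KO and 68.3 ± 36.9 TPM in Ctrl (SD, n = 4 each), 2.61-fold lower in KO. The log2 fold change was -1.20 ± 0.40 (SE, limma adjusted p = 0.0189). The fall of Dnajc11 no longer passed after median-of-ratios scaling (adjusted p = 0.185) or without Ctrl libraries 2 and 4 together (-0.58, adjusted p = 0.148). Under these settings 49% and 13.4% of all genes tested passed, but only 52 and 28 of the 402 genes as lower.

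Both Dnajc11 rows were lower in KO libraries, though not by the same factor. The larger row was at 16.0 to 22.9 TPM in KO and 26.3 to 70.5 TPM in Ctrl (log2 fold change -0.92 ± 0.40 SE, limma adjusted p = 0.0391 over the 450 rows tested, of which 94.7% passed). The smaller row was at 3.67 to 7.91 TPM in KO and 11.9 to 46.4 TPM in Ctrl (-1.87 ± 0.48 SE, adjusted p = 0.00924 over rows). As a share of both rows, which does not move with library scaling, the smaller row made up 22.2%, 33.1%, 14.2% and 14.6% in KO libraries 1 to 4. In Ctrl libraries 1 to 4 it made up 34.4%, 35.8%, 31.2% and 39.7%. KO library 2 lay inside the Ctrl range and the other KO libraries below it. The difference in share was not tested.

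Immt, the core MICOS subunit, was the only other gene with a row among 28 genes for inner-membrane shape, fusion and fission. It was at 16.3 to 18.6 TPM in KO and 22.0 to 48.2 TPM in Ctrl libraries (log2 fold change -0.95 ± 0.37 SE, limma adjusted p = 0.0291). Its fall no longer passed under either scaling or without Ctrl libraries 2 and 4 together. Under the last setting 13.4% of all genes tested passed, 28 of 402 as lower. It was also lost without any 1 of KO libraries 1 to 4 and Ctrl libraries 2 and 4. With 1 of these left out, 46.8% to 80.8% of all genes tested passed, 114 to 196 of 402 as lower. With Opa1, Dnajc11 and Immt, 3 of 3 membrane genes with a row were lower, where 57.2% of all genes tested passed as lower, and the other 25 of the list, among them Mfn1, Mfn2 and Dnm1l, were not analysed here. Immt per Dnajc11 was 0.576 to 0.696 in KO libraries and 0.412 to 0.734 in Ctrl libraries, with overlap.

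**Figure D2:**
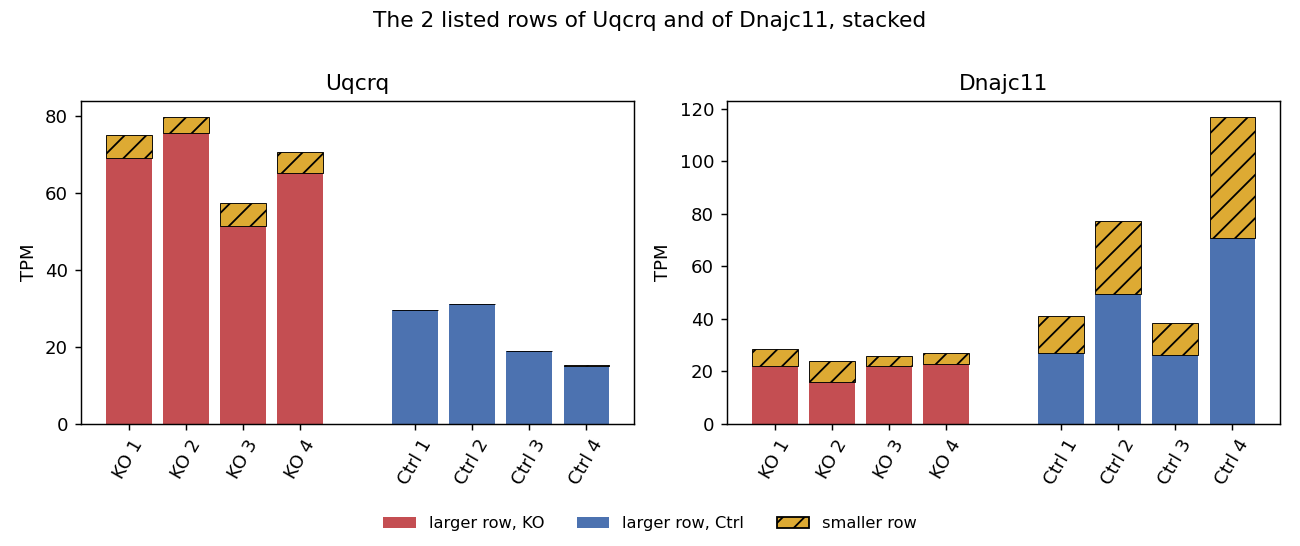
Stacked TPM (y axis, from 0) of the 2 listed rows of Uqcrq (left) and Dnajc11 (right) in the 4 KO libraries and the 4 Ctrl libraries, the larger row in red or blue and the smaller one hatched. The smaller row of Uqcrq is seen in every KO library and in Ctrl library 4 only, and that of Dnajc11 is a smaller part of the bar in KO libraries 1, 3 and 4 than in any Ctrl library.

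Ndufa10, an accessory subunit of complex I, where electrons from NADH enter the chain, lies on chromosome 1 (92439010 to 92473860). It was at 0, 4.75e-08, 1.46 and 5.31 TPM in KO libraries 1 to 4 and at 15.5, 2.15, 19.7 and 12.6 TPM in Ctrl libraries 1 to 4. Ctrl library 2 stood low and overlapped KO library 4. The log2 fold change was -2.47 ± 0.70 (SE, limma adjusted p = 0.0140), and -3.07 without Ctrl library 2. The call was lost after median-of-ratios scaling (adjusted p = 0.066). No other of the 52 listed genes for complex I subunits and assembly had a row.

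Uqcrq encodes a small subunit of complex III, which passes electrons from ubiquinol to cytochrome c (chromosome 11, 53427922 to 53430831). It was the most abundant of the 8 genes in KO libraries, at 75.0, 79.8, 57.2 and 70.6 TPM in KO libraries 1 to 4, against 29.5, 31.2, 19.0 and 15.3 TPM in Ctrl libraries 1 to 4. Every KO library was above every Ctrl library. The mean was 70.7 ± 9.71 TPM in KO and 23.8 ± 7.82 TPM in Ctrl (SD, n = 4 each), 2.97-fold higher in KO. On the log2 scale the change was 1.58 ± 0.35 (SE, limma adjusted p = 0.00524). It stayed past the threshold under each of the 21 alternatives run, with log2 fold changes of 1.40 to 2.36. How many of all genes did so was not computed.

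The rise of Uqcrq was in both of its rows. The larger was at 51.4 to 75.5 TPM in KO and 14.9 to 31.2 TPM in Ctrl libraries (log2 fold change 1.47 ± 0.36 SE, limma adjusted p = 0.0080 over rows). The smaller was at 5.87, 4.35, 5.86 and 5.46 TPM in KO libraries 1 to 4, while it was listed at 0 in Ctrl libraries 1 to 3 and at 0.462 TPM in Ctrl library 4 (limma adjusted p = 0.000547 over rows). It made up 5.45% to 10.2% of both rows in KO libraries and at most 3.02% in Ctrl libraries, with no overlap. The annotation has 3 coding transcripts of Uqcrq, of 405 to 1521 nucleotides, and the rows are not tied to them. No transcript of another gene matched Uqcrq at 95% identity over 200 bases.

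Cox7a2l, also known as SCAF1, helps join complexes III and IV into a supercomplex (chromosome 17, 83501918 to 83517330). It was at 26.3, 11.3, 22.0 and 24.8 TPM in KO libraries 1 to 4 and at 41.3, 60.3, 29.7 and 58.7 TPM in Ctrl libraries 1 to 4. The groups did not overlap, KO library 2 was lowest and Ctrl libraries 2 and 4 highest. The mean was 21.1 ± 6.79 TPM in KO and 47.5 ± 14.7 TPM in Ctrl (SD, n = 4 each), 2.25-fold lower in KO, and the log2 fold change was -1.14 ± 0.39 (SE, limma adjusted p = 0.0212). Its call was lost without KO library 2 (adjusted p = 0.0525), without Ctrl library 2 (0.0568) and under both scalings (0.185 and 0.0773). In the same order, 53.5%, 46.8%, 49% and 59.7% of all genes tested passed under these settings. As lower, 135, 114, 52 and 94 of the 402 genes passed. Cox7a2l matches the processed pseudogene Gm6969 over 342 bases at 98.0% identity, so its reads could be shared with that copy.

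The assembly factors among the listed respiratory genes were lower too. Sdhaf2, which helps attach the flavin cofactor to complex II, was at 0.665 to 2.46 TPM in KO and 3.55 to 5.14 TPM in Ctrl libraries (log2 fold change -1.41 ± 0.44 SE, limma adjusted p = 0.0162). Surf1, an assembly factor of complex IV, was at 0.0274, 2.49, 0.00520 and 1.78 TPM in KO libraries 1 to 4 and at 3.22 to 6.34 TPM in Ctrl libraries (-1.59 ± 0.51 SE, limma adjusted p = 0.0177). For both, the groups did not overlap, and both calls were lost after median-of-ratios scaling (adjusted p = 0.0771 for Sdhaf2 and 0.165 for Surf1). Across complexes I to IV, 4 of 5 genes with a row were lower, beside 57.2% of all genes tested, and Uqcrq was the exception. None of these 4 falls passed after median-of-ratios scaling, where 52 of all 402 genes tested passed as lower. None of 18 ATP synthase genes had a row.

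Ratios between members inside a library do not change with its scaling. Uqcrq, higher in every KO library, was set over Cox7a2l, Dnajc11 and Dap3, each lower in every KO library. The groups therefore had to separate in these ratios. Uqcrq was not paired with the other members, so the ratios do not show that it alone stands apart. The pairs were picked after their values were seen, so they are given without a test. Uqcrq per Cox7a2l was 2.85, 7.07, 2.61 and 2.84 in KO libraries 1 to 4 and 0.714, 0.518, 0.639 and 0.261 in Ctrl libraries 1 to 4. Uqcrq exceeded Cox7a2l in every KO library and was below it in every Ctrl library. Uqcrq per Dnajc11 was 2.22 to 3.34 in KO and 0.131 to 0.718 in Ctrl libraries, and Uqcrq per Dap3 was 15.7 to 38.4 in KO and 1.79 to 5.10 in Ctrl libraries.

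Among Dnajc11, Cox7a2l and Dap3, which all fell, the ratios overlapped between the groups. Dnajc11 per Cox7a2l was 1.08 to 2.11 in KO libraries and 0.995 to 1.99 in Ctrl libraries. Dap3 per Cox7a2l was 0.0740 to 0.245 in KO libraries and 0.115 to 0.289 in Ctrl libraries. Dap3 per Dnajc11 was 0.0686 to 0.141 in KO libraries and 0.0731 to 0.224 in Ctrl libraries. These 3 genes have 3 different roles, and overlap does not show that their proportions were equal.

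**Figure D3:**
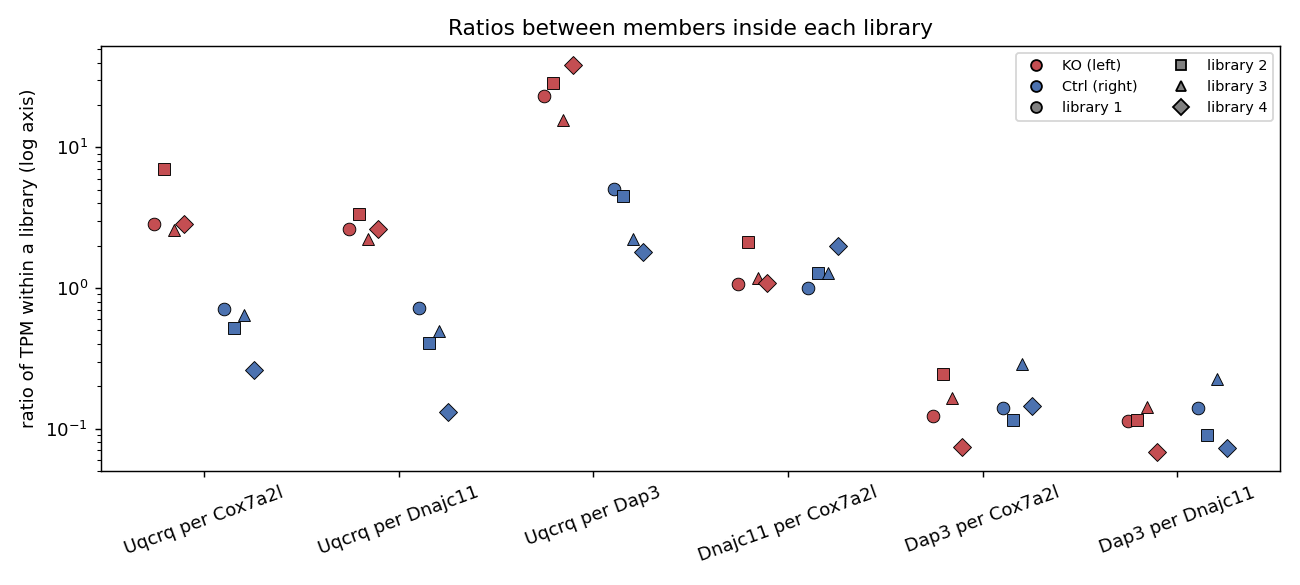
Ratio of the TPM of one gene to that of another inside each library (y axis, log scale) for 6 pairs, with KO libraries left in red and Ctrl libraries right in blue, 1 symbol shape per library number. The 3 ratios with Uqcrq on top are apart between the groups, and the 3 ratios among Dnajc11, Cox7a2l and Dap3 overlap.

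For the mitochondrial ribosome, Dap3 and Mrpl13 fell and Mrps21 rose. Dap3, a GTP-binding protein of the small subunit (chromosome 3, 88920803 to 88951181), was at 3.22, 2.76, 3.65 and 1.84 TPM in KO libraries 1 to 4 and at 5.80, 6.96, 8.56 and 8.54 TPM in Ctrl libraries 1 to 4. The groups did not overlap, and the mean was 2.87 ± 0.775 TPM in KO and 7.46 ± 1.34 TPM in Ctrl (SD, n = 4 each), 2.60-fold lower in KO. The log2 fold change was -1.14 ± 0.44 (SE, limma adjusted p = 0.0289). This call was lost without KO library 2 (adjusted p = 0.0507) or KO library 4 (0.0795), and after median-of-ratios scaling (0.281). It was also lost without Ctrl library 2 (0.0603), Ctrl library 3 (0.0540) or Ctrl library 4 (0.0580). With 1 of these libraries left out, 46.8% to 89.1% of all genes tested passed, 114 to 228 of 402 as lower. Exons of Dap3 and Ash1l overlap on opposite strands, with 242 bases shared between their transcripts, and Smart-seq2 does not mark strand.

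Mrpl13 of the large subunit (chromosome 15, 55534094 to 55557748) was listed at 0, 0.639, 1.34 and 0 TPM in KO libraries 1 to 4 and at 1.99, 2.14, 2.41 and 1.72 TPM in Ctrl libraries 1 to 4. The groups did not overlap, and the Ctrl libraries were close to each other at a low level. Mrpl13 reached the mean of 1 TPM needed for testing only through its Ctrl libraries, so its p-value and lack of overlap are descriptions. The log2 fold change was -1.13 ± 0.37 (SE, limma adjusted p = 0.0191). With a pseudocount of 0.1 it was -2.74 (median of all genes -1.18) and with one of 5 it was -0.37 (median -0.52). The call did not hold without KO library 4 (0.0576), without Ctrl libraries 2 and 4 together (0.0814) or after median-of-ratios scaling (0.124). There 68.9%, 13.4% and 49% of all genes tested passed, and 161, 28 and 52 of the 402 genes as lower. Exons of Mrpl13 and Mtbp overlap on opposite strands, with 330 bases shared, and stretches of 202 to 204 bases in Mrpl13 transcripts match Zmynd8, Tapbpl and Eapp at 95.1% to 96.5% identity. Whether these stretches lie in the transcript behind the listed row was not checked, so how far they affect its level is unknown. Of these genes only Eapp was itself listed.

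Mrps21 of the small subunit (chromosome 3, 95862634 to 95871519) was at 8.67, 17.4, 10.5 and 3.36 TPM in KO libraries 1 to 4 and at 6.73e-09, 13.6, 0 and 1.93 TPM in Ctrl libraries 1 to 4. Ctrl library 2 was above 3 of the 4 KO libraries, and the other Ctrl libraries were below all of them. The log2 fold change was 1.93 ± 0.76 (SE, limma adjusted p = 0.0306), and 2.77 without Ctrl library 2. The call was lost without KO library 1 (adjusted p = 0.0521), KO library 2 (0.0783) or KO library 3 (0.0574). It was also lost without Ctrl library 1 (0.0769), Ctrl library 3 (0.0879) or Ctrl library 4 (0.0586). In these fits 53.5% to 89.1% of all genes tested passed, 80 to 140 of 402 as higher. Mrps21 matches the processed pseudogene Gm6181 at 97.3% identity over 264 bases. Of 50 listed genes of the large and 33 of the small mitochondrial ribosomal subunit, these 3 had a row.

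**Figure D4:**
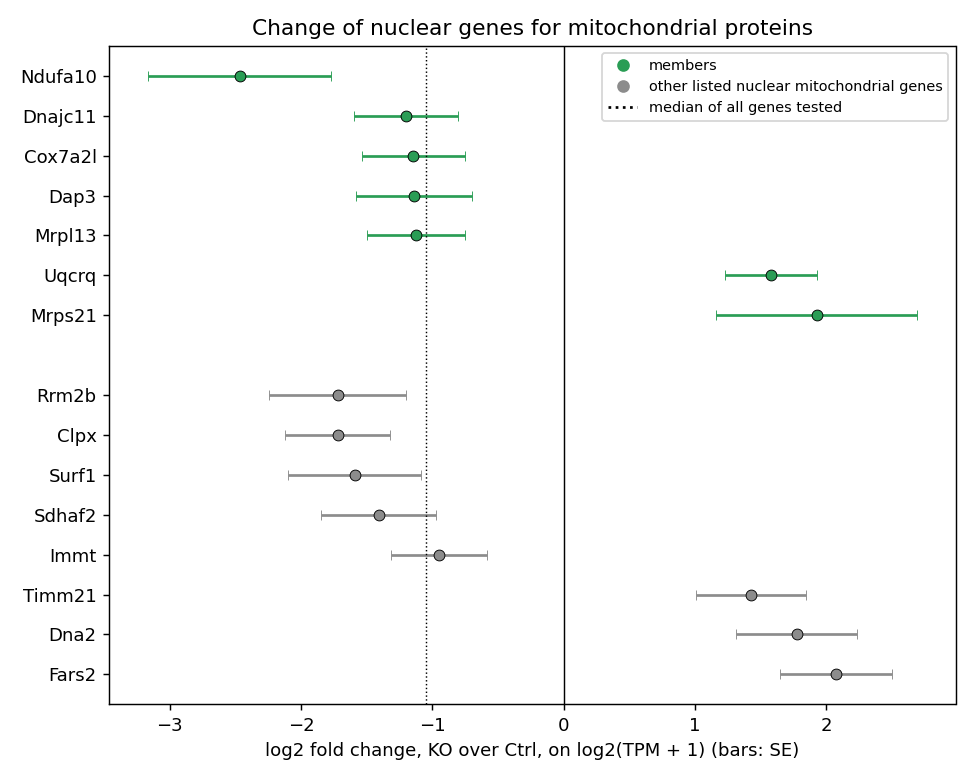
Log2 fold change, KO over Ctrl, on the log2(TPM + 1) scale (x axis, bars show SE, 4 libraries per group) for 7 of the 8 genes (green) and 8 other nuclear genes of the mitochondrial lists (grey), with a dotted line at the median of all genes tested. Opa1 is left out because its KO libraries are all at 0. Dnajc11, Cox7a2l, Dap3 and Mrpl13 lie close to the dotted line at -1.05, a closeness that holds for the pseudocount of 1. No row of the table had group means closer than 2.04-fold, so this closeness is no result about these genes.

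The other nuclear genes of the mitochondrial lists also went both ways. Of 360 genes in 12 lists, chosen with earlier results of these data known, 16 had a row, the 8 described here among them. Of the other 8, all passed in limma, 5 as lower (Immt, Sdhaf2, Surf1, Clpx and Rrm2b) and 3 as higher (Fars2, Timm21 and Dna2), beside 93.8% of all genes tested. Their median log2 fold change was -1.18, next to -1.05 over all genes. The groups did not overlap for 5 of the 8, near the 56.5% of all genes tested.

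Fars2, the mitochondrial phenylalanyl-tRNA synthetase, was at 3.66, 8.95, 2.27 and 2.43 TPM in KO libraries 1 to 4, and was listed at 0 in 3 Ctrl libraries and at 0.640 TPM in Ctrl library 2 (change of 2.08 ± 0.43 SE on the log2 scale, limma adjusted p = 0.0041). Timm21, which links the import channel of the inner membrane to the respiratory chain, was at 3.22, 5.05, 0.869 and 1.34 TPM in KO libraries 1 to 4 and at 0.922, 0.112, 0 and 0 TPM in Ctrl libraries 1 to 4 (1.43 ± 0.42 SE, limma adjusted p = 0.0144). Both were low in Ctrl libraries and, like Dna2, reached the mean of 1 TPM needed for testing only through KO libraries. Clpx, the unfoldase of the matrix protease ClpXP, was at 0, 0, 0.109 and 9.77e-09 TPM in KO libraries 1 to 4 and at 1.14, 5.10, 0.961 and 4.11 TPM in Ctrl libraries 1 to 4 (-1.72 ± 0.40 SE, limma adjusted p = 0.00648). Clpx reached that mean only through Ctrl libraries, so the p-values of Fars2, Timm21, Dna2 and Clpx are descriptions. Fars2 and Clpx stayed past the threshold under all 20 alternatives that gave a value. How many of all genes did so was not computed. For Dna2, a helicase and nuclease, the KO libraries held 1.01 to 7.61 TPM and the Ctrl libraries 0 to 1.01 TPM, and for Rrm2b, a ribonucleotide reductase subunit, 6.99 to 25.7 TPM and 17.3 to 88.7 TPM. Without Ctrl libraries 2 and 4 together the calls of Timm21 (adjusted p = 0.125), Dna2 (0.116) and Rrm2b (0.174) were lost. Those of Sdhaf2 and Surf1 were lost too, where 13.4% of all genes tested passed, 26 of 402 as higher and 28 as lower. Rrm2b was also lost after median-of-ratios scaling (0.143).

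Ordered by median TPM, the 8 genes stood differently in the groups. In KO libraries the order was Uqcrq (72.8 TPM), Dnajc11 (26.3), Cox7a2l (23.4), Mrps21 (9.61), Dap3 (2.99), Ndufa10 (0.732), Mrpl13 (0.320) and Opa1 (0). Uqcrq was apart from Dnajc11, and all later neighbours overlapped in range. In Ctrl libraries it was Dnajc11 (59.1), Cox7a2l (50.0), Uqcrq (24.2), Ndufa10 (14.0), Dap3 (7.75), Opa1 (2.41), Mrpl13 (2.06) and Mrps21 (0.965). There only Dap3 and Opa1 were apart from each other among neighbours.

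The 10 mitochondrially encoded messenger RNAs with a row summed to 10364 ± 3889 TPM in KO and 25580 ± 2725 TPM in Ctrl libraries (SD, n = 4 each). Their products join these nuclear-encoded subunits. This sum is partial, since mt-Co1, mt-Co2 and mt-Atp8 had no row, and its rows belong to the same selection. Against that sum, Cox7a2l was 0.187% to 0.224% in KO and 0.112% to 0.265% in Ctrl libraries, with overlap. Uqcrq was 0.533% to 1.55% of the same sum in KO libraries and 0.0528% to 0.137% in Ctrl libraries. Uqcrq was higher and the sum lower in every KO library, so the groups had to separate in this share.

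**Figure D5:**
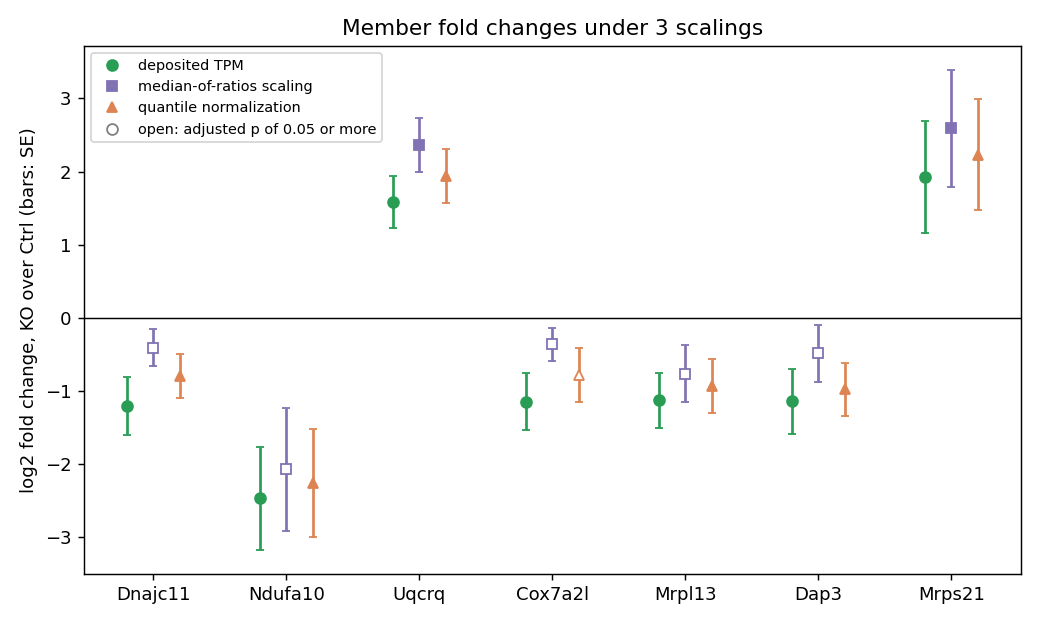
Log2 fold change, KO over Ctrl (y axis, bars show SE), of 7 genes in the deposited TPM (circles), after median-of-ratios scaling (squares) and after quantile normalization (triangles), filled where limma's adjusted p was under 0.05. Uqcrq and Mrps21 stay filled under all 3, and the squares of Dnajc11, Ndufa10, Cox7a2l, Mrpl13 and Dap3 are open. Opa1, at 0 in all KO libraries, is left out and passed under all 3.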

How the data were processed

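The deposited table gives TPM per row for 8 libraries of merged metaphase II oocytes, each column matched to 1 sample by the labels. The submitters' processing notes name kallisto 0.46.2 and sleuth 0.30.1, with the genome build GRCm38. Neither the annotation release nor the rule by which the authors chose the 469 deposited rows is given in the sources used here. The rows are a selection, so p-values describe rows that already differed. No pair of libraries was identical. Values were summed per gene name (417 genes), and 402 genes whose mean over the 8 libraries reached 1 TPM were tested together on log2(TPM + 1). A gene low in 1 group could reach this mean through the other group alone. The test was limma 3.58.1 under R 4.3.3 (two-sided, eBayes with trend). P-values were adjusted by Benjamini-Hochberg over these 402 genes, with calls under 0.05. Adding 1 understates changes of low genes. The fit was first tested on simulated data with independent noise and many unchanged genes. The deposited rows are unlike that, so the simulation does not vouch for the p-values given here. Rows were also tested unsummed. The genes named are the 8 members, other genes of the mitochondrial lists with a row, and for each member the nearest patterns, which for Dap3 are not reported here. Members, lists and ratios were chosen with earlier results of these data known. The motifs were chosen after the promoter sequences had been seen, and the NRF1 motif was shortened by its first letter after its matches were known. Alternatives were other pseudocounts (0.1 and 5), filters (none, or a mean of 5 TPM), scalings, moderation settings, array weights, a replicate block and libraries left out. The alternatives for the 8 other listed genes were added after seeing the data. Positions and transcripts are from GENCODE M21 (GRCm38), and copies were sought with BLAST 2.17.0 at 95% identity over 200 bases. Python 3.11.15, numpy 2.4.6 and pandas 2.3.3 were used for the rest.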

Additional observations from a re-analysis of the deposited data

Results flagged for a closer look

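In 31 groups of 4 libraries (the 8 genes and the 8 other listed mitochondrial genes), 5 held a library far from the other 3 by Dixon's test at 95%. Chance flags about 1 of 20 groups, but this rate says nothing of groups where the other 3 values are at or near 0. That was so for Clpx, Fars2 and Timm21, where a value above 0 easily stands far from the rest. For Mrps21, Ctrl libraries 1 and 3 were also at or near 0. Mrps21 was at 13.6 TPM in Ctrl library 2 and between 0 and 1.93 TPM in the other Ctrl libraries. Sdhaf2 was at 2.46 TPM in KO library 3 and at 0.665 to 0.782 TPM in the other KO libraries. Clpx was at 0.109 TPM in KO library 3 and at or near 0 in the others. Timm21 was at 0.922 TPM in Ctrl library 1 and at most 0.112 TPM in the others. Fars2 was at 0.640 TPM in Ctrl library 2 and listed at 0 in the other Ctrl libraries.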

How the results depend on the processing

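Directions of the 8 genes held in all 166 results under alternatives. In 140 of them the call held and in 26 it was lost. The matching share of kept calls over all genes was not computed, so these counts are no result about the 8 genes. Between 13.4% and 94.7% of all genes or rows tested passed under the alternatives. Uqcrq and Opa1 passed in each alternative that gave a value. For Opa1, leaving out a KO library could not move the log2 fold change, since all its KO values were 0. The count of all genes past the threshold, 377, became 213 with a mean of at least 5 TPM (fewer genes were tested), 197 under median-of-ratios scaling, 240 under quantile normalization and 54 without Ctrl libraries 2 and 4 together. For the last 3 the cause was not tested. With 1 library left out it ran from 188 to 358, lowest without Ctrl library 2, then 215 without KO library 2 and 244 without Ctrl library 4. The count of the 8 genes past the threshold became 3 under median-of-ratios scaling and 4 without Ctrl libraries 2 and 4 together, and ran from 5 to 7 with 1 library left out, with 5 without KO library 2. Leaving out both Ctrl libraries ended the calls of Dnajc11, Cox7a2l, Mrpl13 and Dap3. A pseudocount of 5 ended the call of Mrps21 (adjusted p = 0.0550). A pseudocount of 0.1 or 5 moved the log2 fold changes of the low genes Opa1, Ndufa10, Mrpl13, Dap3 and Mrps21 by over 1.5 times, by construction. The median log2 fold change of all genes was -0.69 under quantile normalization, -0.81 with array weights and -0.62 without Ctrl libraries 2 and 4. Same-numbered KO and Ctrl libraries did not deviate together (correlations of -0.26, -0.20, -0.17 and 0.0654), and 0 of 4 KO libraries matched its own number best. With the replicate block 279 genes passed, 7 of the 8 members among them, Dap3 being the one that did not (adjusted p = 0.0880), and Immt was lost too (0.0951). Among the 8 other listed genes, 18 of 162 calls under alternatives were lost and none turned, again without a matching share over all genes. Both scalings were computed from the listed rows, and with TPM for a selection of rows depth cannot be given.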

Other observations

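For each of the 8 genes except Dap3, the genes with the nearest pattern were sought by the root mean square difference of log2(TPM + 1) over the 8 libraries, after each gene's own mean was taken off, among 384 other named genes. For Dnajc11 they were Gtf2f1 (0.14) and Supt6 (0.16), and for Cox7a2l Srp54a (0.13) and Aspm (0.15). For Uqcrq they were Cdc42bpb (0.17) and Hsf1 (0.22), where the median difference to all genes was 1.45. For Opa1 they were Abi3bp (0.26) and Arhgap11a (0.27), and for Mrpl13 Sdhaf2 (0.29) and Nebl (0.31). Ndufa10 and Mrps21 had no gene as near, with Uri1 at 0.77 and Herc2 at 0.69 as their nearest. Among the 8 genes themselves the nearest pairs were Mrpl13 with Dap3 (0.33) and Dnajc11 with Cox7a2l (0.37), and the farthest was Ndufa10 with Mrps21 (3.14). These distances are descriptions of libraries that fall into 2 groups and carry no test.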
